A study of Homo sapiens with 5 samples.

Results

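The transcription factors that set up and hold the B cell state were examined in KMH2, an established cell line of Hodgkin lymphoma, after treatment with the PI3K inhibitor LY294002. The listed factors were SPIB, SPI1, PAX5, EBF1, POU2AF1, POU2F2, IKZF1, BACH2, IRF8 and MEF2C. Of these 10 factors, 7 had a probe set with a single gene symbol in the platform's annotation, out of 7713 genes so named, and each of the 7 had 1 probe set. PAX5, EBF1 and POU2F2 were not analysed here. One group of KMH2 cultures received 30 uM LY294002 for 16 hours (2 arrays), and the other received DMSO, the solvent control, for the same time (3 arrays). Both groups were grown in the same serum-containing medium, and all arrays came from 1 cell line. The design describes 3 arrays for each treatment, of which 1 was set aside for high background. Whether replicates came from separate cultures is not stated in the labels, so the p-values here cover the spread among 5 arrays and no more, and part or all of that spread may be technical.

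B lymphocytes acquire their identity through a network of transcription factors. EBF1 and PAX5 switch on B cell genes and shut off those of other lineages. SPIB and SPI1 (whose product is PU.1) are closely related Ets factors, while POU2AF1 (BOB.1, also called OCA-B) is a coactivator that sits on the Oct factors POU2F1 and POU2F2 at octamer motifs. Hodgkin and Reed-Sternberg cells descend from germinal centre B cells but are known for having lost much of the B cell programme: PU.1, BOB.1 and Oct-2 (POU2F2) are often absent, and PAX5 is usually kept at a low level. LY294002 blocks PI3K, which carries signals from the B cell receptor and from cytokine receptors, and it also binds mTOR and BET bromodomain proteins.

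The windows around 2 transcription start sites are shown because these genes are the factor that fell, SPIB, and the 1 relative of the listed factors that rose, IRF4. They come from RefSeq on GRCh38.p14, are written 5′ to 3′ in the direction of the gene, and run from 250 bases before the start site to 50 bases after it. SPIB lies at chr19:50418688-50418987 on the plus strand and IRF4 at chr6:391502-391801 on the plus strand. Capitals mark the letters TATAAA, a form of the TATA box.
SPIB promoter: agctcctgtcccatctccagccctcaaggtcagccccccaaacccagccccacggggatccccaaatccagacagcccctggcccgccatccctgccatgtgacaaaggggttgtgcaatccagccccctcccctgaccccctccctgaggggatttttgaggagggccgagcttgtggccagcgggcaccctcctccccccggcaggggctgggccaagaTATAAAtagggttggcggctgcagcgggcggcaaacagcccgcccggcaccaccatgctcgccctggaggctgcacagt
IRF4 promoter: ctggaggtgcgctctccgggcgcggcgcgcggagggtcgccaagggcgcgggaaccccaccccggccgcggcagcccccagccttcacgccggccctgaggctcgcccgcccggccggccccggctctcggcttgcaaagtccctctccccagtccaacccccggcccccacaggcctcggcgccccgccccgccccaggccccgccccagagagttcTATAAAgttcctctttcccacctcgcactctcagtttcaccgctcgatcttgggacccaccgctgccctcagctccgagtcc
Counted with the start site as the first base after position -1, TATAAA began at position -29 in the SPIB window and at -32 in the IRF4 window, in both on the printed strand. On either strand, 11.5% of 35116 promoter windows of this length hold TATAAA. The octamer ATGCAAAT, which Oct factors and BOB.1 bind, was in neither window, and neither was GAGGAAGT, an Ets motif. These are held on either strand by 1.77% and 2.59% of all windows. The windows of BLNK and CR2, targets of B lineage factors that fell, are not shown. They held neither TATAAA nor the octamer nor GAGGAAGT. Only these exact letters were searched, so variant forms of the motifs were not counted in any window. RefSeq windows were found for 8 of the 10 listed factors (17 windows, since some genes have several). Of these 8 factors, 1 had an octamer, MEF2C, with its first base at -60 in 1 of its windows on the opposite strand, and 0 had GAGGAAGT. TATAAA was in 3 of the 17 windows, 1 each of SPIB, PAX5 and IKZF1, and the share of 11.5% above is also per window.

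With LY294002, SPIB fell to about 0.505 of its DMSO level, and it was the 1 factor of the 7 whose change passed the test. SPIB is an Ets factor of mature B cells and plasmacytoid dendritic cells, and in mice it is needed for normal B cell receptor signalling. Its log2 level was 8.72 and 8.63 on the LY294002 arrays, against 9.62, 9.63 and 9.74 on the DMSO arrays. Both LY294002 arrays lay below all DMSO arrays, and the gap was far wider than the spread within either group. The log2 difference, LY294002 minus DMSO, was -0.98 ± 0.05 (SE from limma; 95% interval -1.13 to -0.84), with a limma adjusted p of 0.0168 over 8746 probe sets. As a ratio the interval runs from 0.457 to 0.559. In size it was the 10th most negative difference of 7713 genes. With 5 arrays that call was fragile: the difference stayed between -1.03 and -0.94 when any 1 array was left out, but the limma adjusted p was then 0.0697 to 0.132. It was 0.0858 without DMSO replicate 1, 0.132 without DMSO replicate 2, 0.13 without DMSO replicate 3, 0.124 without LY294002 replicate 1 and 0.0697 without LY294002 replicate 2. That SPIB was lower was already known when the factors were listed, so its call is no independent evidence. Of all genes, 0.908% passed the same threshold (0.298% lower and 0.609% higher), and 1 of 7 factors passed.

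**Figure D1:**
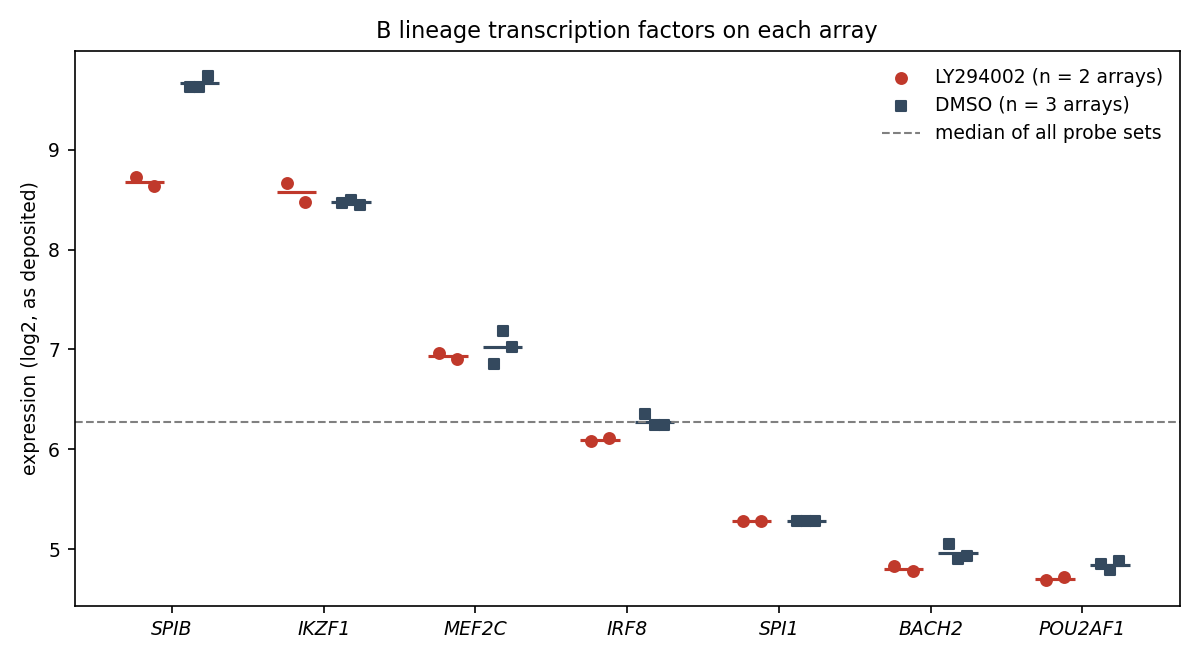
Log2 expression of the 7 factors on each array (circles, LY294002, 2 arrays; squares, DMSO, 3 arrays; short lines, group means; dashed line, median level of all probe sets). The LY294002 values of SPIB, 8.72 and 8.63, lie well below its DMSO values of 9.62 to 9.74, while the other factors differ by 0.18 or less between group means.

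SPI1, the Ets factor closest to SPIB, encodes PU.1, which directs myeloid and early B cell development. Its probe set read 5.29 on both LY294002 arrays and 5.29 on all 3 DMSO arrays, the same deposited value on all 5. Such a run of 1 value occurred in 68 of 8746 probe sets, 54 of them below the median level of all probe sets, which was 6.27. A value without any spread carries no measured error, and the test of SPI1 is therefore not read. A value repeated on at least 2 arrays was common, in 4942 of the 8746 probe sets, and among the 7 factors it occurred in SPI1 and IRF8. POU2AF1, the BOB.1 coactivator, stood at 4.69 and 4.72 with LY294002, against 4.86, 4.80 and 4.88 with DMSO. Its LY294002 arrays were both the lower ones, but the difference was -0.14 ± 0.04 (95% interval -0.24 to -0.04; limma adjusted p = 0.19).

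IRF8, an interferon regulatory factor of germinal centre B cells and of myeloid cells that can act together with PU.1 or SPIB, read 6.08 and 6.11 with LY294002 and 6.35, 6.24 and 6.24 with DMSO. The same deposited value stood on DMSO replicates 2 and 3, which narrows the measured spread. The groups did not overlap, and the difference of -0.18 ± 0.05 did not pass (95% interval -0.31 to -0.06; limma adjusted p = 0.169). BACH2 is a repressor that holds back plasma cell differentiation. It read 4.83 and 4.78 with LY294002 and 5.06, 4.90 and 4.93 with DMSO, again with both LY294002 arrays below the DMSO range. Its difference was -0.16 ± 0.06 (95% interval -0.31 to -0.00046; limma adjusted p = 0.292). Among all genes, IRF8, BACH2 and POU2AF1 ranked 612th, 776th and 952nd of 7713 from the most negative difference.

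IKZF1 encodes Ikaros, a zinc finger factor of all lymphoid cells, and it stayed near its DMSO level. It read 8.67 and 8.48 with LY294002, against 8.47, 8.50 and 8.45 with DMSO. The groups overlapped, and the difference was 0.10 ± 0.06 (95% interval -0.07 to 0.27; limma adjusted p = 0.45). LY294002 replicate 1 decided that value, since leaving that array out gave 0.0096 and leaving out LY294002 replicate 2 gave 0.20. The upper quartile of LY294002 replicate 1 was 7.69, against 7.59 to 7.62 on the other 4 arrays, and the part of this shift in the IKZF1 value was not tested. MEF2C, a MADS-box factor that responds to calcium signals in B cells, read 6.96 and 6.90 with LY294002 and 6.85, 7.18 and 7.03 with DMSO. Its DMSO arrays spanned both LY294002 values, and its difference was -0.09 ± 0.10 (95% interval -0.37 to 0.19; limma adjusted p = 0.651). Without DMSO replicate 2, the highest of the arrays for MEF2C, it was -0.0081.

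**Figure D2:**
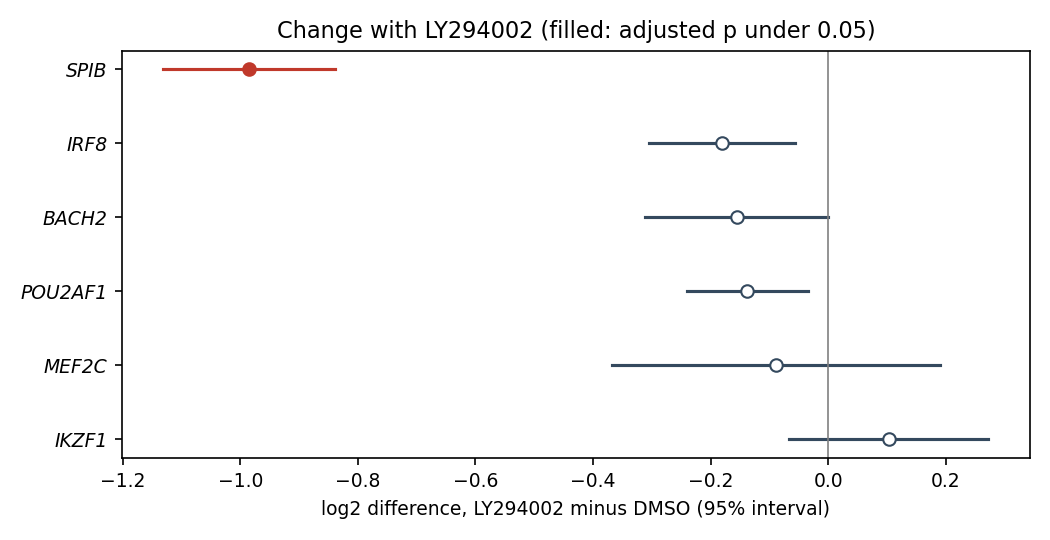
Log2 difference between LY294002 and DMSO for the factors with a measured spread, with 95% intervals from the limma fit; SPI1 is left out because its value is the same on all arrays. SPIB lies at -0.98 with its interval ending at -0.84, and the intervals of the other 5 all lie above -0.37.

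Over the 7 measured factors, the median log2 difference was -0.14, beside -0.01 over all 7713 genes. SPIB, IRF8, BACH2 and POU2AF1 had both LY294002 arrays below all DMSO arrays, which is 4 of 7, and 0 of 7 had both above; of all genes 13.4% lay below in this way and 16.2% above, together 29.6%. The same 4 had an unadjusted limma p under 0.05, a mark reached by 17.1% of all genes in either direction and by 6.5% of all genes with a lower level. Without SPIB the median was -0.11 over 6 factors, with 3 of 6 below the DMSO range and 0 past the threshold. In bulk RNA of this kind, fewer cells that express a factor and less RNA per cell cannot be told apart.

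The factors were also set apart as retained or lost, by their level on these arrays and by what is known of Hodgkin cells. By level, SPIB, IKZF1 and MEF2C had a mean over the 5 arrays above 6.27, the median of all probe sets, at the 93.3, 86.6 and 63.8 percentile of all probe sets. IRF8, SPI1, BACH2 and POU2AF1 lay below it, at the 48.5, 26.0, 16.6 and 14.2 percentile. Probe sets differ in affinity, so these percentiles do not rank the factors by abundance, and a dim probe set can show little fall. Genes of other organs, such as those of albumin and insulin, had probe set means of 3.94 to 8.13 over 22 genes, and 19 of the 22 lay below the median. All 4 dimmer factors therefore lie at levels that probe sets of genes with no known use in lymphoid cells also reach. SPIB lay outside that span, at 8.68 ± 0.06 with LY294002 (SD, n = 2) and 9.66 ± 0.07 with DMSO (SD, n = 3). MEF2C, at a mean of 6.99, lay inside it only because of SFTPC, the organ gene at 8.13. The next brightest organ gene, CRYAA, averaged 6.39 with LY294002 and 6.42 with DMSO, below MEF2C.

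By textbook knowledge, PAX5 is the retained factor, and SPIB, SPI1, POU2AF1 and POU2F2 are those lost or reduced in classical Hodgkin cells. PAX5 and POU2F2 have no value here. The probe set of SPIB lay above the median of all probe sets, and those of SPI1 and POU2AF1 lay below it. The median log2 difference was -0.09 over the 3 brighter factors, of which SPIB passed the threshold, and -0.15 over the 4 dimmer ones, of which 0 passed limma's adjusted threshold and 3 had an unadjusted p under 0.05. Genes of other organs, read as a check on dim probe sets, had differences from -0.14 to 0.03 with a median of -0.04, and 1 of 22 had both LY294002 arrays below the DMSO range (13.4% of all genes). The differences of IRF8 and BACH2 lie just outside that span and that of POU2AF1 inside it.

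Relatives of the factors were measured in 17 of 24 cases, and 1 rose and 0 fell, where 0.609% of all genes rose and 0.298% fell. IRF4, a relative of IRF8 that drives plasma cell differentiation and is also expressed in Hodgkin cells, read 8.91 and 8.87 with LY294002, against 8.15, 8.35 and 8.18 with DMSO. Both LY294002 arrays were higher than all DMSO arrays, the difference was 0.66 ± 0.07 and the limma adjusted p was 0.0473, a call that was lost whichever array was left out. IRF1, an interferon-induced activator, was at 0.40 ± 0.05 (limma adjusted p = 0.0636). BACH1, the relative of BACH2 that represses haem-responsive genes, was at 0.28 ± 0.07 (0.157), and IRF5, a factor of Toll-like receptor signalling, at -0.14 ± 0.03 (0.127). The median of the 17 was 0.06.

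Of 30 other transcription factors of B cell development, 25 were measured and 0 passed limma's adjusted threshold. An unadjusted limma p under 0.05 was reached by 6 of the 25, all of them higher with LY294002. Over all genes, 819 of 7713 reached it on the higher side, and 17.1% in either direction. NFKB2, a subunit of the alternative NF-kB pathway, differed by 0.74 ± 0.13 (limma adjusted p = 0.0876) and its partner RELB by 0.26 ± 0.06 (0.15). BCL6, the repressor of the germinal centre, was at 0.37 ± 0.06 (0.0886), and MYB, a factor of blood progenitors, at 0.41 ± 0.09 (0.132). Both LY294002 arrays exceeded the DMSO range in 7 of the 25, or 28%, and lay below it in 1, or 4%, where all genes gave 16.2% and 13.4%. The median was -0.0055.

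Of 50 genes known as targets of B lineage factors, 41 were measured, and 2 fell and 0 rose (0.298% and 0.609% of all genes). BLNK, the adaptor that links the B cell receptor to its kinases, averaged 5.67 ± 0.11 with LY294002 (SD, n = 2) and 7.14 ± 0.23 with DMSO (SD, n = 3), a difference of -1.48 ± 0.15 (limma adjusted p = 0.0419). CR2, the complement receptor CD21, averaged 9.41 ± 0.15 with LY294002 (SD, n = 2) and 10.17 ± 0.06 with DMSO (SD, n = 3), a difference of -0.76 ± 0.08 (0.0437). Both calls were lost whichever array was left out. MS4A1 (CD20) was at -0.999 ± 0.15 (limma adjusted p = 0.073), and CCR7, a chemokine receptor that guides lymphocytes to lymph nodes, was at 1.14 ± 0.18 (0.0776). The median difference of the 41 was -0.10, with 31 below 0 and 10 above. Both LY294002 arrays lay below the DMSO range in 14 of the 41, or 34.1%, and above it in 2, or 4.88%, where all genes gave 13.4% and 16.2%. The targets are assigned to the factors as a group, and which of them SPIB itself controls in KMH2 was not measured.

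**Figure D3:**
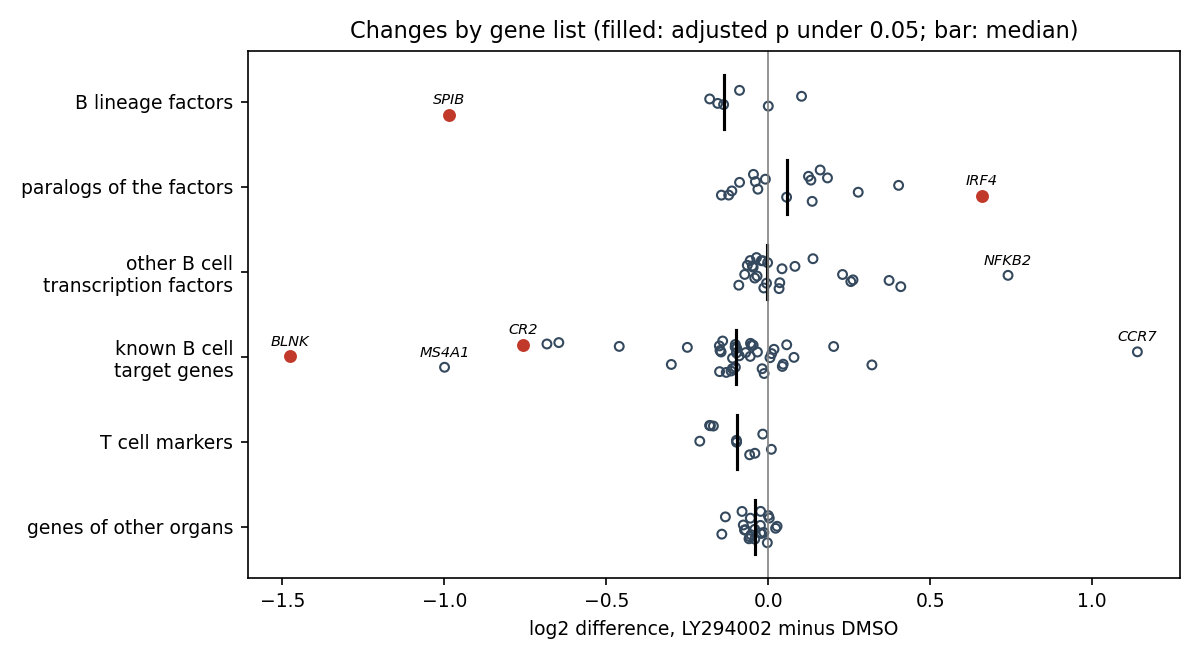
Log2 difference between LY294002 and DMSO for each measured gene of 6 lists (filled circles passed limma's adjusted threshold, open circles did not, vertical bars are list medians; vertical scatter within a list has no meaning). SPIB, BLNK and CR2 are the filled circles on the lower side and IRF4 the 1 on the higher side, while the genes of other organs stay between -0.14 and 0.03.

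Markers of the cell type were read on the same arrays. Of 18 measured genes of Hodgkin and Reed-Sternberg cells, 14 lay above the median level of all probe sets and 0 passed limma's adjusted threshold. Both LY294002 arrays were below the DMSO range in 6 of the 18 and above it in 4 (13.4% and 16.2% of all genes). TNFRSF8 (CD30), the defining surface marker of Hodgkin cells, was at 7.71 and 7.39 with LY294002 and 8.13, 8.49 and 8.09 with DMSO. It was 1 of the 6 below, with CCL17, CCL22, FSCN1, STAT6 and FUT4. CD70, JUNB, TRAF1 and MSC were the 4 above. The median difference of the 18 was -0.09, with 11 below 0 and 7 above. The Hodgkin cell genes named here were chosen after their values were seen. Of the B lineage markers, MS4A1 was bright, and CD79A and CD79B lay at the 45.4 and 23.5 percentile of all probe sets. Myeloid markers were above the median level in 1 of 10 genes, with array means of 5.29 to 5.32 with LY294002 and 5.34 to 5.39 with DMSO. Of 7 erythroid markers 2 were measured. These, HBB and HBD at the 80.7 and 62.5 percentile of all probe sets, also lay above the median level. T cell markers were above it in 7 of 10, with array means of 6.79 to 6.88 with LY294002 and 6.93 to 6.96 with DMSO. Of these 10, 3 had both LY294002 arrays below the DMSO range (30%, against 13.4% of all genes), and 0 had both above. Their part in the differences of the factors was not tested.

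The genes whose pattern came closest to that of SPIB were found by the root mean square distance between log2 profiles over the 5 arrays, each taken relative to its DMSO mean. IFI27, an interferon-induced gene, was nearest at a distance of 0.0425, with a difference of -1.03 ± 0.07. LGALS2, which encodes a galectin, followed at 0.0885, NME4, a mitochondrial nucleoside diphosphate kinase, at 0.0941, CORO1A, an actin-binding protein of leukocytes, at 0.0964, and ALOX5AP, the activating protein of leukotriene synthesis, at 0.131. Their log2 differences ran from -1.09 to -0.84, and all 5 fell by the limma threshold, as 0.298% of all genes did. Nearness to SPIB selects for such differences, so these calls are no separate result. The distance rests on 5 arrays in 2 groups, and the treatment difference makes up most of each profile. The other 6 factors lay far from SPIB on this measure, at 0.515 for IRF8 to 0.69 for IKZF1.

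**Figure D4:**
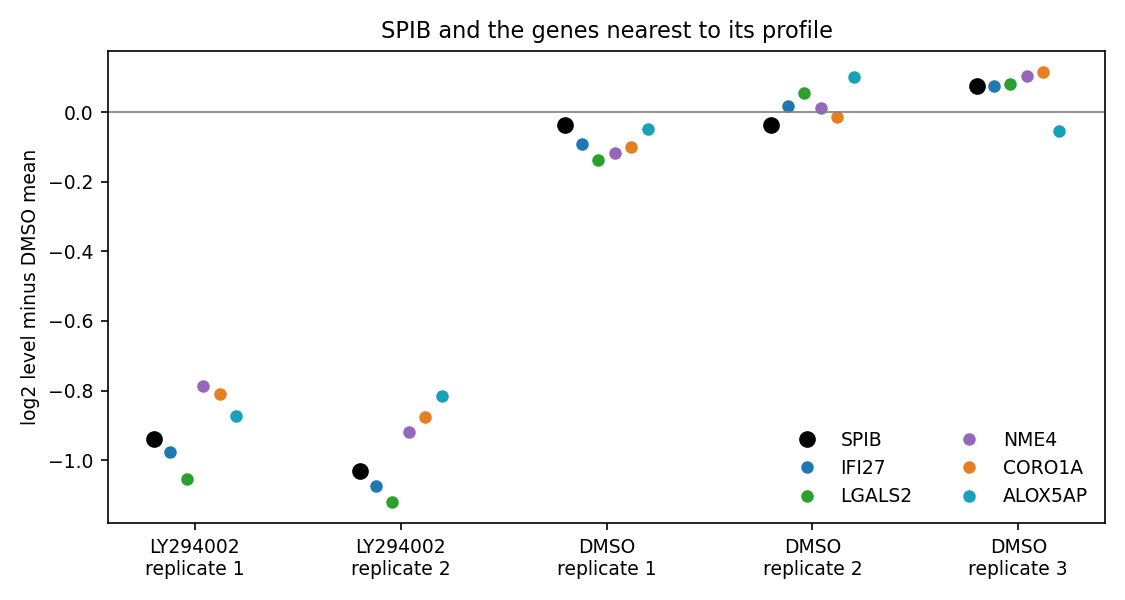
Log2 level of SPIB and of the 5 genes nearest to its profile on each array, relative to each gene's DMSO mean. On the LY294002 arrays all 6 genes lie between -1.12 and -0.79, and on the DMSO arrays they lie between -0.14 and 0.11.

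The size of the SPIB difference varied little with the handling of the arrays, unlike its adjusted p. Under all 15 alternatives it stayed between -1.03 and -0.94, the most negative being quantile normalization. Several of these change only the test or the other probe sets, and so could not move it from -0.98. The limma adjusted p ran from 0.000186 to 0.348 over the same alternatives.

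**Figure D5:**
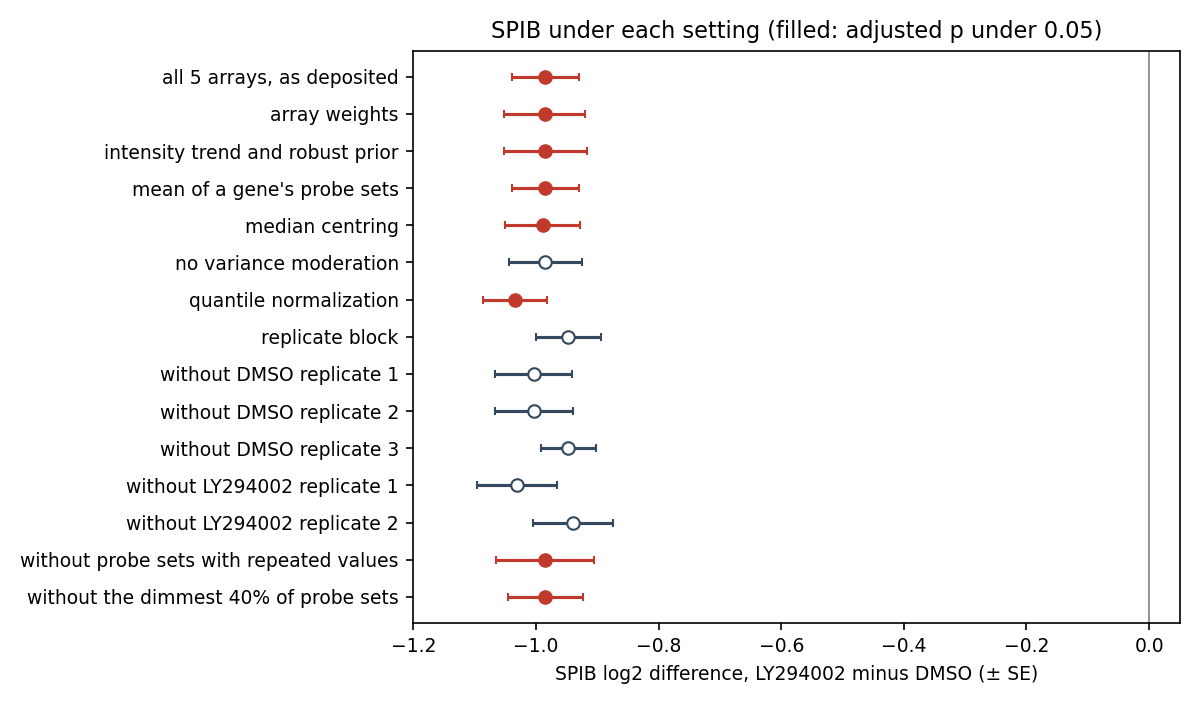
SPIB log2 difference between LY294002 and DMSO (± SE) under each setting of the analysis (filled circles have an adjusted p under 0.05, open circles do not). The estimates stay between -1.03 and -0.94, and each of the 5 fits that leave out 1 array has an open circle.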

How the data were processed

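Expression was measured with Affymetrix arrays hybridised with biotin-labelled cRNA, per the labels' protocols. The deposited table holds log2 values for 8793 probe sets on 5 arrays, which the authors made with affy, an R package, according to the submitters' processing notes. Its version and settings: not given in the sources used here. Values were taken as normalized and used as deposited. Without 47 control probe sets, 8746 entered the fit. Names came from the platform's annotation; the brightest probe set stood for a gene.

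LY294002 was compared with DMSO by limma 3.58.1 (lmFit, eBayes; R 4.3.3), with group as the only term, 3 residual degrees of freedom, two-sided tests and Benjamini-Hochberg adjustment over all probe sets at 0.05. Array number limits the precision. "Rose" and "fell" mean past that threshold. The factors, lists and most alternatives were chosen with earlier results of these data known. Named genes are all measured factors; in each list of relatives, other factors and targets, those past the threshold, filled up to 4 by smallest p; and the 5 nearest SPIB. The fit was tried on simulated data (10 tables, 8746 probe sets each). There it found 85.7% of changes when these were 0.5 on the log2 scale and 98.8% when they were 1. Among the simulated calls, 4.19% were false. The simulated noise was independent and normal, with the spread of each probe set taken from the limma fit after variance moderation. It held no repeated values, unlike 4942 of the 8746 real probe sets. Whether these percentages hold for the real arrays was not tested. On those, SPIB at -0.98 and BLNK at -1.48 passed. MS4A1 at -0.999 (limma adjusted p = 0.073), CCR7 at 1.14 (0.0776) and NFKB2 at 0.74 (0.0876) did not. A gene that did not pass is therefore not shown to be unchanged. Motif windows came from RefSeq; TATAAA was added after seeing the data. Figures were drawn with matplotlib 3.10.9.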

Additional observations from a re-analysis of the deposited data

How the results depend on the processing

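The SPIB difference was negative under all 15 alternatives, but for many of them this was fixed in advance. The settings that change only the test or leave out other probe sets cannot move its estimate of -0.98. Averaging a gene's probe sets cannot either, since SPIB has 1. Leaving out 1 array could not turn the sign, because the groups do not overlap. Its call was lost without variance moderation (-0.98, adjusted p = 0.139), with the replicate number as a block (-0.95, 0.348), with a 2-fold minimum (-0.98) and without any 1 array (-1.03 to -0.94). Whether the replicate numbers pair the arrays is not known. Deviations of same-numbered arrays correlated at 0.0021 and -0.21. With 2 LY294002 arrays, the deviations of 1 are the exact mirror of the other, so these values cannot decide it. The number of factors called by limma was 0 without variance moderation, with the replicate block, with a 2-fold minimum and without any 1 array, where 1 to 4 of 7 factors had an unadjusted p under 0.05, and 1 otherwise. The other 6 factors passed under none of the alternatives in which they were measured, and none reversed. Over all genes, where 70 were called, limma called 17 with array weights, 147 after median centring, 1 without moderation, 299 after quantile normalization, 0 with the replicate block (820 at an unadjusted p under 0.05), 203 without the dimmest 40% of probe sets and 20 with a 2-fold minimum. It called 656 without probe sets with repeated values, a setting chosen after seeing the data, and 0 to 4 without 1 array (946 to 2085 at an unadjusted p under 0.05). Relatives called were 2 after median centring, without dim probe sets and without repeated values, and 0 with array weights, without moderation, with the replicate block, with a 2-fold minimum and without any 1 array (3 to 6 at an unadjusted p under 0.05). Of the other B cell transcription factors limma called 2 after quantile normalization, 3 without repeated values and 1 without dim probe sets. Known targets called were 5 after quantile normalization, 7 without repeated values, 4 without dim probe sets and 1 with a 2-fold minimum. They were 0 with array weights, without moderation, with the replicate block and without any 1 array (8 to 14 at an unadjusted p under 0.05). Fewer arrays leave 2 residual degrees of freedom, and the replicate block leaves fewer still. DMSO replicate 3 stands alone in its block, so the block fit gives the same differences as the fit without that array. The 2-fold minimum drops SPIB because its difference, -0.98, is just short of 2-fold. The cause of the other shifts was not tested. The split into 3 brighter and 4 dimmer factors did not move under the 7 alternatives that rescale or leave out arrays. The organ gene limit, 6.27, is nearly the same as the median and so tests little. Above the brightest organ gene, SFTPC at 8.13, there are SPIB and IKZF1 but not MEF2C. MEF2C, at 6.99, lay above all the organ genes except SFTPC. A lone LY294002 array is assumed to vary like the DMSO arrays.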
